A study of Mus musculus with 21 samples.

Results

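The 10 genes described here, Lgr5, Cd34, Lhx2, Nfatc1, Sox9, Fgf18, Tbx1, Postn, Foxc1 and Tcf7l1, are genes that hair follicle stem cells of the mouse are known to express. They were taken by symbol from a named set of bulge and hair germ genes, and they are 10 of the 49315 genes listed in the deposited files. The rule uses no measured value, but the set was chosen with earlier results of these data known. Shares of all genes given below are therefore no independent test of the set. RNA came from sheets of mouse epidermis, in 21 samples of 7 groups with 3 samples each. Only 8 of the 21 files carried values, since the other 13 list 0 for all genes. They were 3 strain-specific controls at 6 months of age (genotype WT), 3 libraries at 6 months of the genotype K14CreTfap2afl/flTfap2bfl/fl, called double knockout below after their label, and 2 libraries of the genotype K14CreTfap2bfl/fl at 3 weeks. K14Cre drives the recombinase from a keratin 14 promoter, which is active in basal keratinocytes and in the outer cells of the hair follicle, bulge included, so a floxed gene is targeted in the epithelium and not in the dermis. The strain itself, the sex of the animals and whether each sample came from a separate animal are not given in the labels, so the p-values below measure only the spread between these libraries.

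Hair follicles go through cycles of growth, regression and rest, and each new growth phase starts from stem cells in the bulge and in the small hair germ below it. The bulge is held at rest by signals from its own niche, among them FGF18 and bone morphogenetic proteins, and is set in motion by Wnt signalling, which R-spondins strengthen through LGR receptors. A set of transcription factors, SOX9, LHX2, NFATC1, TBX1, FOXC1 and TCF7L1, is needed to keep these cells in their state, to limit their division or to let them renew. AP-2 alpha and AP-2 beta, the products of Tfap2a and Tfap2b, are transcription factors of keratinocytes. In bulk RNA such as this, fewer cells of a type and less RNA per cell cannot be told apart.

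The 8 libraries held 11318181 to 17746284 counts. Tfap2a stood at 165, 140 and 210 CPM (counts of a gene, scaled to the same library total for every sample) in the controls and at 229, 213 and 309 CPM in the libraries labelled as double knockout, and Tfap2b had 57.3, 86.6 and 71.0 CPM against 53.8, 57.2 and 56.9 CPM. Neither targeted gene was lower by the test used throughout (edgeR's quasi-likelihood test, Benjamini-Hochberg adjusted over 17755 genes, threshold 0.05; adjusted p = 0.118 and 0.111), so the counts over whole genes do not show the deletion that the labels name and every direction below is that of libraries labelled double knockout. Control replicates 1 and 2 had a count in 35794 and 39362 genes and the other 6 libraries in 23454 to 25537, and odorant and vomeronasal receptor genes, which epidermis does not use, drew 1.60 and 3.19 counts per kb of exon in those controls against 0.0950 to 0.195 in the other libraries. At that rate the 10 genes would draw 1.90 to 32.7 counts in control replicates 1 and 2, against the 39 to 1832 counts they had there. The share was largest in control replicate 1 for Cd34 (11.7 of 64 counts) and Tcf7l1 (6.30 of 39 counts). Subtracting this background changed no call among the 10 genes. By rank correlation over genes, control replicate 3 was as close to the libraries labelled double knockout (0.944 to 0.951) as to control replicates 1 and 2 (0.942 and 0.947), which lay at 0.903 to 0.917 to them. The label of epidermis held, with Krt5 and Krt14, the keratins of the basal layer, at 2434 to 5893 CPM and 1018 to 5079 CPM over the 8 libraries.

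All 10 genes passed the filter on low counts. Of the 10, 3 fell in the libraries labelled as double knockout (Lgr5, Fgf18 and Tcf7l1), against 8.59% of all genes tested. Postn was the 1 gene that rose, against 6.26% of all genes tested. Lgr5, the R-spondin receptor of the hair germ and lower bulge, fell 12.4-fold, and Fgf18, the growth factor that holds the bulge at rest, fell 4.96-fold. The median log2 fold change of the 10 genes was -0.93, with 9 negative and 1 positive value, and that of all genes tested was -0.035. Without a p-value, by plain comparison of libraries, 4 of the 10 genes (Lgr5, Fgf18, Tcf7l1 and Cd34) were lower in every library labelled double knockout than in every control, against 16.3% of all genes tested, and Postn was higher in every one, against 22.5%. The remaining 5 genes, all of them transcription factor genes, were low in replicates 1 and 2 labelled double knockout and within or above the control range in replicate 3.

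**Figure D1:**
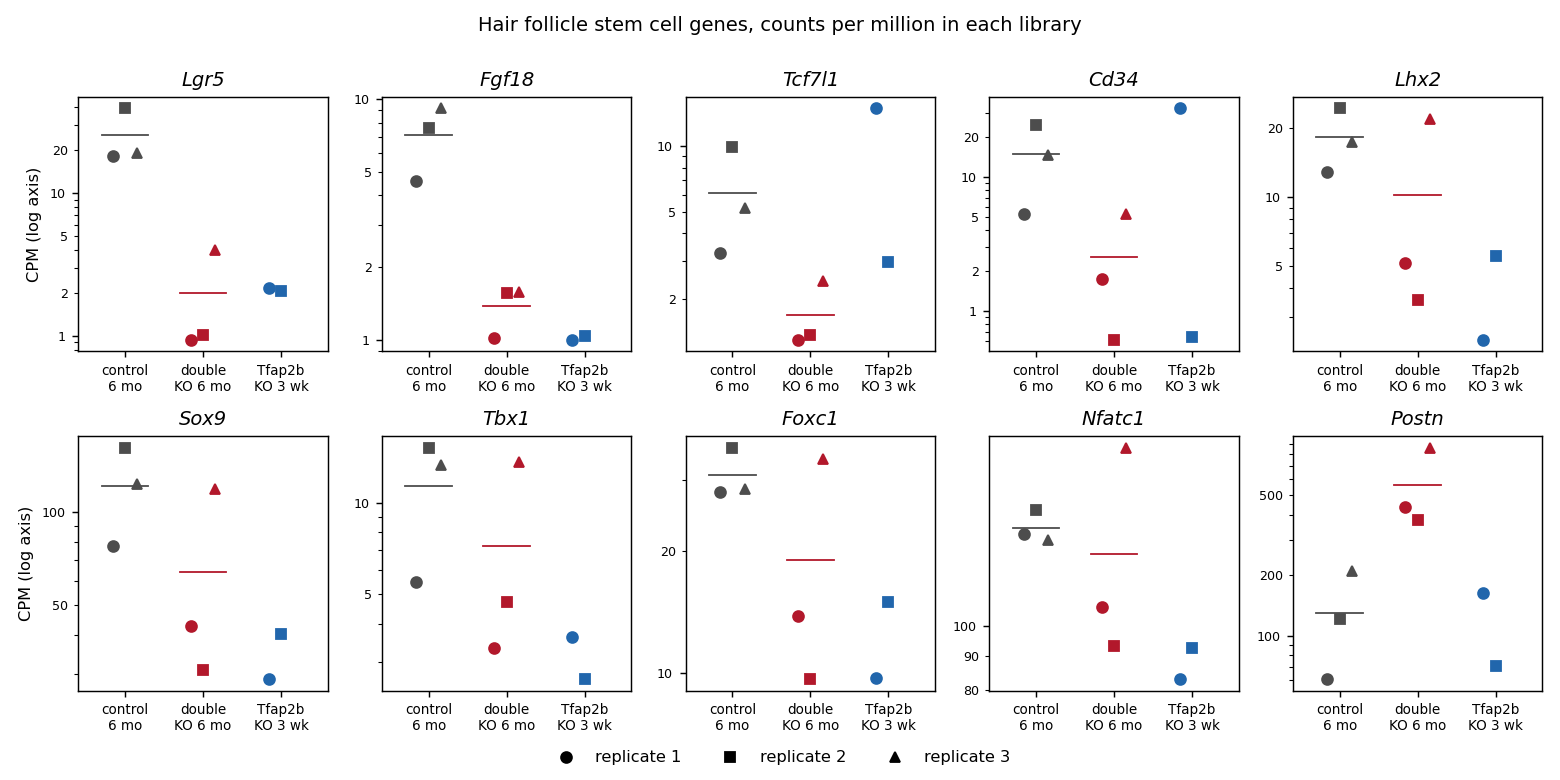
CPM of the 10 genes in each of the 8 libraries with counts, on log axes, with controls at 6 months in grey, libraries labelled double knockout at 6 months in red and libraries labelled Tfap2b knockout at 3 weeks in blue; symbols mark the replicate number and lines the mean of each 6-month group. The red triangle, replicate 3, is the highest of its group in all 10 panels.

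Lgr5 (chr10:115450311-115587780, minus strand, GRCm38), which encodes a receptor for R-spondins and marks cycling cells of the hair germ and lower bulge, had 18.1, 39.4 and 19.1 CPM in control replicates 1 to 3. The libraries labelled double knockout had 0.941, 1.02 and 4.0 CPM, from 13, 15 and 71 counts. Every one of them lay below every control, and replicate 3 was 4.07 times the mean of the other 2. As shares of the control mean, the 3 libraries held 3.68%, 4.0% and 15.7%. The log2 fold change was -3.63 (SE 0.598, n = 3 against 3; edgeR adjusted p = 0.00785), the largest in size among the 10 genes. It passed the threshold in 15 of 15 alternative analyses, and fits that left out 1 library gave -4.54 to -3.18.

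Fgf18 (chr11:33117430-33147400, minus strand), a growth factor made by the resting bulge, had 4.57, 7.60 and 9.18 CPM in the controls. The libraries labelled double knockout had 1.01, 1.57 and 1.58 CPM, from 14 to 28 counts, so the groups did not overlap. Here replicate 3 was only 1.22 times the mean of replicates 1 and 2, the smallest such ratio among the 10 genes. This gave a log2 fold change of -2.31 (SE 0.403, n = 3 against 3; edgeR adjusted p = 0.00589), past the threshold in 15 of 15 alternative analyses, with -2.54 to -2.01 when 1 library was left out. The 250 bases before the start of Fgf18 on the minus strand (RefSeq window, GRCm38.p6, chr11:33147401-33147650) are shown because AP-2 proteins bind the palindrome GCCNNNGGC, which reads the same on both strands, and this stretch holds no copy of it.
Fgf18: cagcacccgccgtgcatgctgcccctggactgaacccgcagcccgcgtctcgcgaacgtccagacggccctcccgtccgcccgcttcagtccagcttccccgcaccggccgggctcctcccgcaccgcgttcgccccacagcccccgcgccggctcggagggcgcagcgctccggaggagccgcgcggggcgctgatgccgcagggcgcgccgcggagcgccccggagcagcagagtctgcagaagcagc

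Cd34 (chr1:194938819-194961279, plus strand) encodes a surface sialomucin used to sort mouse bulge cells, and blood vessel and dermal cells carry it too. It had 5.31, 24.4 and 14.6 CPM in the control libraries and 1.74, 0.614 and 5.30 CPM in the libraries labelled as double knockout. The groups met at their edges, since 5.297 CPM in replicate 3 lay just below 5.315 CPM in control replicate 1. The log2 fold change was -2.51 (SE 0.796, n = 3 against 3), which did not pass the threshold with edgeR (adjusted p = 0.0689) and did with DESeq2 (-2.58, adjusted p = 0.0399). Without replicate 3 labelled double knockout it was -3.54 with an edgeR adjusted p of 0.0233. The summed CPM of 10 endothelial markers was 27.8, 44.0 and 15.8 in the control libraries and 14.6, 14.4 and 26.1 in the libraries labelled as double knockout, and that of 12 fibroblast markers was 78.6, 198 and 77.5 against 45.2, 50.1 and 62.3. Both sums were highest in control replicate 2 among the controls and in replicate 3 among the libraries labelled double knockout, as Cd34 was. In replicate 3, 16.3 CPM of the endothelial sum was 1 gene, Flt1, which had 3.91 and 6.14 CPM in replicates 1 and 2. Replicate 3 was the highest of its group for 3 of 6 endothelial and 4 of 10 fibroblast genes tested, against 31.5% of all genes tested. The part of these markers in the values of Cd34 was not tested.

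Tcf7l1 (chr6:72626378-72789254, minus strand) encodes TCF3, a repressor of Wnt target genes in resting bulge cells. It had 3.24, 9.90 and 5.21 CPM in the control libraries and 1.30, 1.36 and 2.42 CPM in the libraries labelled as double knockout. All 3 of the latter lay below the lowest control, from 18, 20 and 43 counts. A log2 fold change of -1.83 resulted (SE 0.494, n = 3 against 3; edgeR adjusted p = 0.0317). The call was lost without control replicate 2 (-1.31, edgeR adjusted p = 0.119) and without replicate 1 (-1.63, 0.130) or 2 (-1.66, 0.115) labelled double knockout. It was kept in 9 of 15 alternative analyses, all with a negative fold change.

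**Figure D2:**
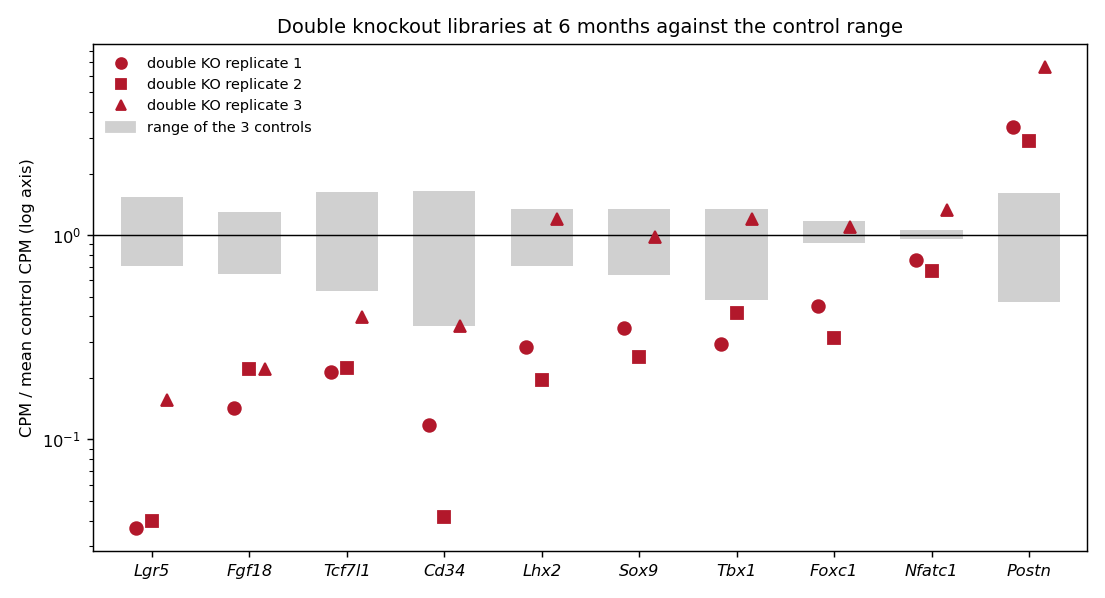
CPM of each gene in the 3 libraries labelled double knockout at 6 months, divided by the mean of the 3 controls, on a log axis; grey boxes span the lowest to the highest control. Lgr5, Fgf18, Tcf7l1 and Cd34 lie below the boxes in all 3 libraries, Postn above, and for Lhx2, Sox9, Tbx1 and Foxc1 replicate 3 (triangles) lies inside the box.

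Lhx2 (chr2:38339281-38369733, plus strand), a LIM homeobox factor that keeps bulge cells from leaving their resting state, had 12.9, 24.5 and 17.4 CPM in the controls. The libraries labelled double knockout had 5.14, 3.55 and 21.9 CPM. Replicates 1 and 2 held 28.2% and 19.4% of the control mean and replicate 3 held 120%, so the groups overlapped through that library. Over all 3 libraries the log2 fold change was -0.89 (SE 0.666, n = 3 against 3; edgeR adjusted p = 0.395). Without replicate 3 it was -2.08, with an edgeR adjusted p of 0.00736, whereas it was -0.53 without replicate 1 (edgeR adjusted p = 0.637) and -0.45 without replicate 2 (edgeR adjusted p = 0.638).

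Nfatc1 (chr18:80606205-80713071, minus strand), a calcineurin-dependent factor that holds bulge cells in quiescence by repressing Cdk4, had 138, 149 and 135 CPM in the controls, the narrowest spread of the 10 genes relative to the mean (coefficient of variation 0.0555, n = 3). It had 107, 93.2 and 186 CPM in the libraries labelled as double knockout, 2 below all controls and 1 above all of them. Nfatc1 had a log2 fold change of -0.20 (SE 0.241, n = 3 against 3; edgeR adjusted p = 0.60), and its sign turned without replicate 2 labelled double knockout (0.03, edgeR adjusted p = 0.957). Without replicate 3 it was -0.54 (edgeR adjusted p = 0.0833), so among the 10 genes Nfatc1 had the smallest fold change in either fit.

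Sox9 (chr11:112782224-112787760, plus strand), the factor that sets up the bulge in the embryo and maintains it in the adult, had 77.5, 162 and 124 CPM in the controls. It had 42.7, 30.7 and 119 CPM in the libraries labelled as double knockout. Replicates 1 and 2 lay at 35.2% and 25.4% of the control mean and replicate 3 at 98.3%. With all libraries the log2 fold change was -0.98 (SE 0.551, n = 3 against 3; edgeR adjusted p = 0.274), and without replicate 3 it was -1.76 (edgeR adjusted p = 0.01005). Without replicate 1 or 2 it was -0.71 or -0.61 (edgeR adjusted p = 0.483 and 0.457).

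Foxc1 (chr13:31806691-31810643, plus strand), a forkhead factor that returns active bulge cells to rest, had 28.1, 36.0 and 28.5 CPM in the controls, a narrow range (standard deviation 4.50, n = 3). The libraries labelled double knockout had 13.8, 9.68 and 33.7 CPM. Replicates 1 and 2 were below all controls, and replicate 3 lay between the middle and the highest control. Over all 3 libraries it changed by -0.76 on the log2 scale (SE 0.415, n = 3 against 3; edgeR adjusted p = 0.244), against -1.43 without replicate 3 (edgeR adjusted p = 0.0106) and -0.52 or -0.40 without replicate 1 or 2 (edgeR adjusted p = 0.478 and 0.487). The 250 bases before the Foxc1 start (RefSeq, GRCm38.p6, chr13:31806396-31806645, plus strand) hold 1 copy of the AP-2 palindrome, in capitals, whose first base is 136 bases before the start, at position -136.
Foxc1: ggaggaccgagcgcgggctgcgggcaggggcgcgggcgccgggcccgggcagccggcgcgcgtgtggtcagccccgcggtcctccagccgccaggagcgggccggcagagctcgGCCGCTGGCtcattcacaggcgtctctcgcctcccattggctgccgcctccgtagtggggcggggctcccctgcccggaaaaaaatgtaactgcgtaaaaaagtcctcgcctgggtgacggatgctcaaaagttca

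Tbx1 (chr16:18581713-18586969, minus strand), a T-box factor that supports renewal of the bulge over repeated hair cycles, had 5.48, 15.2 and 13.3 CPM in the controls. The libraries labelled double knockout had 3.33, 4.70 and 13.6 CPM. Control replicate 1 lay nearer to replicates 1 and 2 labelled double knockout than to the other controls, without overlapping them. Tbx1 had a log2 fold change of -0.70 (SE 0.557, n = 3 against 3; edgeR adjusted p = 0.415). Without replicate 3 it was -1.51, and the edgeR adjusted p of 0.0691 still missed the threshold. Leaving out replicate 1 or 2 gave -0.32 or -0.43 (edgeR adjusted p = 0.724 and 0.688).

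Postn (chr3:54361109-54391037, plus strand) encodes periostin, a secreted matrix protein of the hair follicle niche, also produced by dermal fibroblasts and in healing wounds. It had 60.8, 121 and 208 CPM in the control libraries and 437, 376 and 864 CPM in the libraries labelled as double knockout. The lowest of the latter was above the highest control, and replicate 3 again stood highest, at 2.12 times the mean of replicates 1 and 2. The log2 fold change was 2.04 (SE 0.516, n = 3 against 3; edgeR adjusted p = 0.0460). The fold change stayed between 1.60 and 2.63 when 1 library was left out, but the edgeR call held only without control replicate 3 (2.63, adjusted p = 0.0153). It was lost without control replicate 1 (1.70, 0.0849) or 2 (1.99, 0.133) and without replicate 1 (2.23, 0.0970), 2 (2.28, 0.0882) or 3 (1.60, 0.0925) labelled double knockout. Of 12 fibroblast markers 10 were tested, 4 fell and 1 rose, against 8.59% and 6.26% of all genes tested, with a median log2 fold change of -2.04. Within the group labelled double knockout the sum of the 12 was highest in replicate 3 (62.3 against 45.2 and 50.1 CPM), as Postn was. A large part of it was Col6a1, the marker that rose, at 30.1, 23.4 and 27.9 CPM in replicates 1 to 3. Gene by gene, replicate 3 was the highest of its group for 4 of the 10 tested, against 31.5% of all genes tested. Of 8 markers of wounded or stressed keratinocytes 4 rose, against 6.26% of all genes tested. Their median log2 fold change was 4.05, with sums of 92.9 to 326 CPM in the control libraries and 3028 to 3920 CPM in the libraries labelled as double knockout. The part of either list in the values of Postn was not tested. A second RefSeq start of Postn has 250 upstream bases (GRCm38.p6, chr3:54360857-54361106, plus strand) with 1 copy of the AP-2 palindrome, in capitals, with its first base at position -123.
Postn: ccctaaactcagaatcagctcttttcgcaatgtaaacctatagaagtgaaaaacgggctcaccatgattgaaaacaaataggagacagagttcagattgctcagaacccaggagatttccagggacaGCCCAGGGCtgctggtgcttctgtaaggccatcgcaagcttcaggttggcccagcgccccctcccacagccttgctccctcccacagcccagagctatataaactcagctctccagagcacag

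The RefSeq table of windows from 250 bases before to 50 bases after a start (GRCm38.p6) matched 7 of the 10 genes by symbol, with 10 windows in all. It had no window for Lgr5, Nfatc1 and Sox9. The AP-2 palindrome was found in 1 window each of 4 genes, namely Foxc1, Lhx2 (3 copies, at positions -182, -175 and 36), Postn and Tbx1 (position -3). It was not found in the windows of Cd34, Fgf18 and Tcf7l1. Of all 32851 windows in the table, 16.6% hold the palindrome, and of all 27025 genes 18.5% do. The fixed bases of the palindrome are all G or C. The 10 windows held 40.0% (Postn) to 78.7% (Fgf18) G and C, and the shares over all windows and genes were not matched for this. The core of the TCF/LEF site, CTTTGA on either strand, was in 0 of the 10 windows, against 16.0% of all windows. These are matches of letters in short windows and show no binding. Of the 4 genes with the palindrome, Postn was called higher and Foxc1, Lhx2 and Tbx1 were not called. Of the 3 without it, Fgf18 and Tcf7l1 were called lower and Cd34 was not called.

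Replicate 3 labelled double knockout stood apart from replicates 1 and 2 for these genes. It was the highest of its group for all 10 genes, whereas it was the highest for 31.5% of all genes tested. Its ratio to the mean of replicates 1 and 2 ran from 1.22 for Fgf18 to 5.03 for Lhx2, with 4.51 for Cd34, 4.07 for Lgr5, 3.39 for Tbx1 and 3.24 for Sox9. For Lhx2, Sox9, Tbx1, Foxc1 and Nfatc1, 5 of the 10 genes, replicates 1 and 2 were below all controls and replicate 3 was not, a pattern seen in 4.09% of all genes tested. Without that library 7 of the 10 genes were called lower (Lgr5, Fgf18, Tcf7l1, Cd34, Lhx2, Sox9 and Foxc1), against 3.84% of all genes tested in that fit, and the median log2 fold change over the 10 was -1.92. That library was singled out by the values of these same genes, so its removal lowers their fold changes by construction. Without replicate 1 or 2 labelled double knockout, 2 of the 10 genes were called lower in each fit (medians -0.62 and -0.53). All genes called lower there were 355 of 21237 and 593 of 21056. By edgeR 0 of the 10 were called higher in the fit without replicate 3 labelled double knockout, against 2.6% of all genes tested there. Postn was not past the threshold in the fit without replicate 3, but it was the 1 gene higher at an unadjusted edgeR p under 0.05.

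Further measures of replicate 3 stand beside these values. Its 17746284 counts were the most of any library, and it had a count in 25020 genes, against 24676 and 23454 in replicates 1 and 2. Its summed adipocyte markers were 5.80 CPM against 0.579 and 0.682 CPM in replicates 1 and 2 and 2.41 to 10.1 CPM in the controls. Of the 5.80 CPM, 3.72 CPM was 1 gene, Fabp4, from 66 counts against 1 and 6 in replicates 1 and 2. The other adipocyte markers had only 0 (Lep) to 15 (Cfd) counts in replicate 3. The sum of the wound and stress markers was 3920 CPM against 3825 and 3028 CPM in replicates 1 and 2, and most of that sum is Krt6a, Krt6b and Krt16. Replicate 3 was the highest of its group for 4 of the 8 genes of that list, whereas Krt6a and Krt16 were highest in replicate 1. Sprr1b (189, 179 and 153 CPM in replicates 1 to 3) and Il1b (2.03, 1.64 and 1.47 CPM) were lowest in replicate 3. Of the same list, 3 genes named after their values were seen set replicate 3 apart. S100a8, for a calprotectin subunit, had 24.0, 4.23 and 172 CPM in replicates 1 to 3, its partner S100a9 had 7.60, 2.52 and 70.8 CPM, and Sprr2d, for a cornified envelope precursor, had 7.31, 12.3 and 87.2 CPM. The cell division markers of replicate 3 summed to 366 CPM against 378 and 496 CPM. Of 10 basal keratinocyte markers, 6 were called higher by edgeR and 0 lower (0 also at an unadjusted p under 0.05 and by DESeq2), against 6.26% and 8.59% of all genes tested. The 10 summed to 13536, 14969 and 16874 CPM in the libraries labelled as double knockout and to 6905, 7208 and 8508 CPM in the controls. The part of these differences in the 10 genes' values was not tested. Among the controls, replicate 2 was the highest for 8 of the 10 genes, against 32.2% of all genes tested, and it was also the library with the highest fibroblast, endothelial and melanocyte sums.

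**Figure D3:**
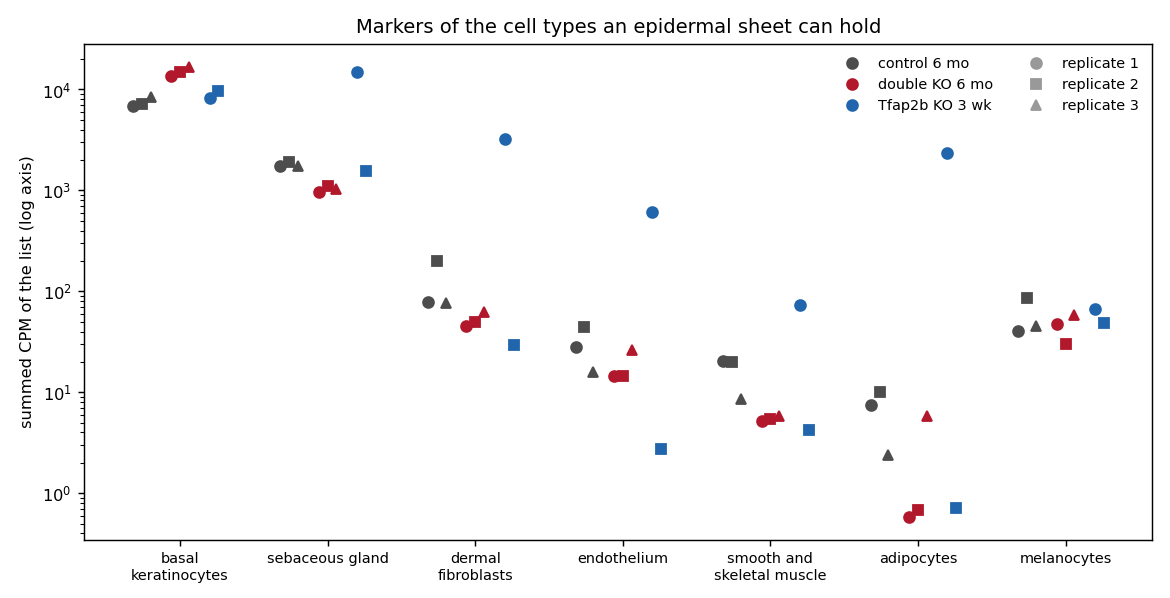
Summed CPM of marker lists for cell types that an epidermal sheet can hold, in the 8 libraries with counts, on a log axis; colours give the group and symbols the replicate number. Basal keratinocyte sums are higher in the 3 libraries labelled double knockout than in the 3 controls, and Tfap2b knockout replicate 1 stands far above the others for fibroblast, endothelial, adipocyte and sebaceous gland markers.

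Levels of different genes were compared as CPM per kb of exon. In the controls Sox9 was highest at 29.3 ± 10.2 (SD, n = 3) CPM per kb, followed by Nfatc1 (18.9 ± 1.05), Postn (14.9 ± 8.54), Foxc1 (7.81 ± 1.14), Tbx1 (6.38 ± 2.90) and Fgf18 (5.99 ± 1.97). Lhx2 (4.16 ± 1.33), Lgr5 (2.49 ± 1.17), Cd34 (2.02 ± 1.31) and Tcf7l1 (1.56 ± 0.871) were lowest. The ranges of every pair of neighbours in this order overlapped, so only distant places can be told apart. In the libraries labelled double knockout Postn led at 64.2 ± 30.5 CPM per kb, with all 3 values above those of the next gene, Nfatc1 (17.3 ± 6.74), and of Sox9 (15.5 ± 11.6). Foxc1 (4.82 ± 3.25), Tbx1 (4.07 ± 3.15) and Lhx2 (2.32 ± 2.31) lay in the middle. Fgf18 (1.17 ± 0.272) lay above, without overlap, the last 3 places, which were Tcf7l1 (0.432 ± 0.16), Cd34 (0.35 ± 0.335) and Lgr5 (0.194 ± 0.170).

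The 2 libraries labelled Tfap2b knockout at 3 weeks have no control of their age with counts, so their values are given with no comparison between genotypes. Lgr5 stood at 2.16 and 2.08 CPM, Fgf18 at 1.00 and 1.04 CPM, and Nfatc1 at 83.1 and 92.6 CPM, close between the 2 replicates. Sox9 (28.8 and 40.4 CPM), Lhx2 (2.39 and 5.51 CPM), Foxc1 (9.71 and 15.0 CPM) and Tbx1 (3.62 and 2.64 CPM) differed more, and Postn had 162 and 70.3 CPM. Cd34 and Tcf7l1 split widely, with 32.6 and 0.639 CPM for Cd34 and 15.0 and 2.96 CPM for Tcf7l1. Replicate 1 of this pair also held 3255 CPM of fibroblast, 610 CPM of endothelial and 2355 CPM of adipocyte markers, against 29.5, 2.72 and 0.719 CPM in replicate 2. Both libraries carry the same age and genotype labels, and the part of these markers in the split was not tested.

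Of 20 other genes linked to the bulge and hair germ, all of them tested, 5 rose, 1 fell and 14 did not pass. Over all genes tested, 6.26% rose and 8.59% fell. The median log2 fold change of the 20 was 0.39. Those that rose encode matrix, adhesion and hemidesmosome proteins and a transcription factor, and several are shared with the interfollicular basal layer. Tnc, for the matrix protein tenascin C, went from 12.1, 15.5 and 19.99 CPM to 61.6, 47.5 and 84.9 CPM (log2 fold change 1.94, SE 0.255; edgeR adjusted p = 0.00204). Npnt, for nephronectin, which anchors the arrector pili muscle at the bulge, rose by 1.63 (SE 0.231; edgeR adjusted p = 0.00278). Itga6, for the integrin alpha 6 used to sort basal cells, rose by 0.90 (SE 0.137; edgeR adjusted p = 0.00408). These 3 passed in 6 of 6 fits that left out 1 library. Runx1, a factor that promotes entry into growth, rose by 1.09 (edgeR adjusted p = 0.0499) and passed in 1 of those 6, the fit without replicate 2 labelled double knockout. Col17a1, named here because it completes the count of 5 and chosen after its values were seen, rose by 0.89 (edgeR adjusted p = 0.0178), and its call was lost without control replicate 1 or 2 or replicate 1 labelled double knockout.

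In the other direction, Cd200, a surface marker of the bulge, had 19.3, 17.2 and 18.8 CPM in the control libraries and 9.92, 7.29 and 11.5 CPM in the libraries labelled as double knockout. It changed by -1.01 on the log2 scale (SE 0.227; edgeR adjusted p = 0.0186), lost without control replicate 2 or replicate 1 or 2 labelled double knockout. Krt15, the bulge keratin that also occurs in basal cells, had 728, 1164 and 1187 CPM against 234, 673 and 330 CPM. Its groups did not overlap, but its log2 fold change of -1.39 (SE 0.388) missed the threshold (edgeR adjusted p = 0.0513). Vdr, the vitamin D receptor, had 0.48 (edgeR adjusted p = 0.0722). Replicate 3 labelled double knockout was the highest of its group for 16 of the 20 genes, against 31.5% of all genes tested, but of Cd200 and Krt15 only Cd200 peaked there.

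**Figure D4:**
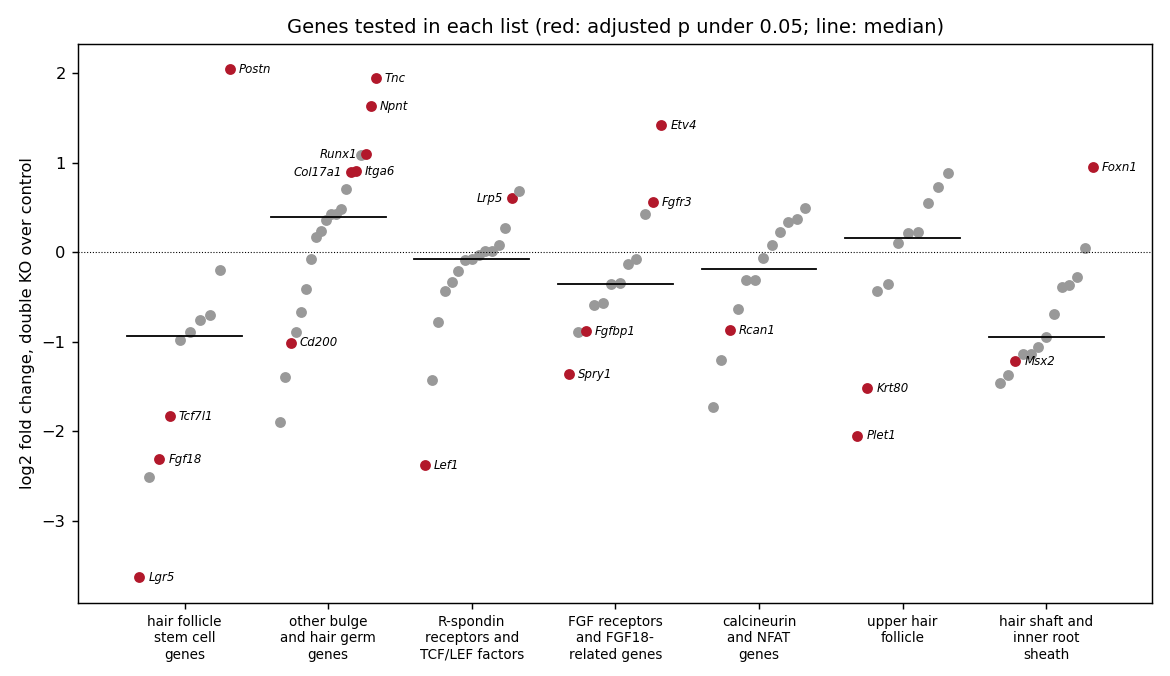
log2 fold changes, libraries labelled double knockout over controls at 6 months, of the tested genes in the 10-gene set and in 6 related lists; each dot is a gene, red dots with names passed the threshold (edgeR adjusted p under 0.05) and lines are medians. The 10-gene set spans -3.63 to 2.04, and its median of -0.93 is close to the -0.95 of the list for hair shaft and inner root sheath.

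Around Lgr5 and Tcf7l1, 18 further genes of R-spondin signalling and of the TCF/LEF family were listed. Of these, 15 were tested, 1 rose and 1 fell, against 6.26% and 8.59% of all genes tested, with a median log2 fold change of -0.08. Lef1, the TCF/LEF factor of the growing hair shaft, had 3.16, 4.51 and 1.89 CPM in the control libraries and 0.0724, 0.750 and 0.733 CPM in the libraries labelled as double knockout. Lef1 fell by 2.38 on the log2 scale (SE 0.734; edgeR adjusted p = 0.0393) and Lrp5, a Wnt co-receptor, rose by 0.60 (SE 0.147; edgeR adjusted p = 0.0266). Each was past the threshold in 1 of 6 fits that left out 1 library, the one without control replicate 3. Ctnnb1, for beta-catenin, had a log2 fold change of 0.08 (edgeR adjusted p = 0.695), and Tle3, a co-repressor, had -0.09 (edgeR adjusted p = 0.706).

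Around Fgf18, 16 FGF receptor and response genes were listed and 12 tested. Of these, 2 rose and 2 fell (median -0.35), against 6.26% and 8.59% of all genes tested. Spry1, a feedback inhibitor induced by FGF, fell from 95.6, 86.5 and 79.1 CPM to 36.4, 42.1 and 28.8 CPM (log2 fold change -1.36, SE 0.174; edgeR adjusted p = 0.00175), and it passed in 6 of 6 fits that left out 1 library. Fgfbp1, an FGF carrier protein, fell by 0.88 (SE 0.249; edgeR adjusted p = 0.0445), whereas the ETS factor gene Etv4 rose by 1.42 (SE 0.412; edgeR adjusted p = 0.0424). Each of these lost its call without control replicate 1 or 2 or replicate 1 or 2 labelled double knockout. Fgfr3, which encodes an FGF receptor, rose by 0.56 (SE 0.148; edgeR adjusted p = 0.0329) and kept its call in 1 of 6 such fits, without control replicate 3. Fgfr2, an FGF receptor of epithelial cells, had -0.08 (edgeR adjusted p = 0.753), and the adaptor Frs2 had -0.13 (edgeR adjusted p = 0.523).

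Around Nfatc1, 13 genes were listed and 12 tested, namely calcineurin and NFAT genes together with Cdk4, a target of NFATC1, and the bulge receptor genes Bmpr1a and Prlr. Of the 12, 1 fell and 0 rose by edgeR, against 8.59% and 6.26% of all genes tested (2 were higher and 5 lower at an unadjusted p under 0.05, and DESeq2 called 0 higher and 3 lower). Rcan1, a calcineurin inhibitor that NFAT itself induces, fell from 130, 143 and 132 CPM to 73.1, 91.4 and 68.6 CPM (log2 fold change -0.87, SE 0.147; edgeR adjusted p = 0.00613), and its call was lost only without replicate 1 labelled double knockout. Nfat5, the tonicity-responsive member, had -0.64 (edgeR adjusted p = 0.0883) and Ppp3ca, the calcineurin A alpha subunit, had 0.08 (edgeR adjusted p = 0.737).

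Of 10 upper follicle genes, all tested, 2 fell and 0 rose by edgeR (2 higher at an unadjusted p under 0.05, and 2 by DESeq2), with a median log2 fold change of 0.16, where 8.59% of all genes tested fell and 6.26% rose. Plet1, a surface marker of the upper isthmus, fell by 2.05 (SE 0.344; edgeR adjusted p = 0.00948) and Krt80, a keratin that differentiating cells of other epithelia carry as well, fell by 1.52 (SE 0.187; edgeR adjusted p = 0.00149), each in 6 of 6 fits that left out 1 library. Of 18 hair shaft and inner root sheath genes, 17 were in the files and 13 were tested, 1 rose and 1 fell, and the median was -0.95. Of these 13, 11 had a negative fold change, and 6 were lower in every library labelled double knockout than in every control, against 16.3% of all genes tested. Several of them rest on few counts, such as Krt28 with 24, 15 and 14 in the controls against 5, 12 and 5. The part of the background in control replicates 1 and 2 in such values was not tested. Msx2, a homeobox factor of the hair matrix, fell by 1.22 (SE 0.294; edgeR adjusted p = 0.0226), kept in the fits without control replicate 1 or 3 and lost in the other 4. Foxn1, a factor of hair and differentiating keratinocytes, rose by 0.95 (SE 0.280; edgeR adjusted p = 0.0488), kept in 1 of 6 such fits, without control replicate 3. Of 12 sebaceous gland genes, 10 were tested and 2 fell (median -0.87), among them Scd1, a fatty acid desaturase, by 2.09 (edgeR adjusted p = 0.00013), past the threshold in 6 of 6 such fits. Of 10 genes of the dermal papilla and sheath, 6 were tested and 5 had a negative fold change (median -1.63). By edgeR 0 of these 6 were called, with 1 higher and 4 lower at an unadjusted p under 0.05, and DESeq2 called 1 higher and 2 lower. The median of this list was -1.01 without control replicate 2 and -2.1 without control replicate 3. Counts were low here too, as for Hhip with 27, 46 and 16 in the controls against 5, 10 and 12. The part of the control background was not tested.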

How the data were processed

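The authors deposited a raw, unscaled count for each of 49315 Ensembl gene identifiers, and 8 of the 21 files held counts above 0. Per the labels' protocols, ribosomal RNA was depleted, the NEBNext Ultra II kit was used and libraries were read as 150 bp pairs. The submitters' processing notes name Trimmomatic 0.36, STAR 2.5.2b, featureCounts of Subread 1.5.2 and the builds GRCh38 and GRCm38. The annotation, the use of strand and the handling of multi-mapping reads are not given in the sources used here, so reads of overlapping or antisense genes cannot be told apart. Symbols came from GENCODE M21 for 48970 identifiers.

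Samples were grouped by their titles. The 3 controls and 3 libraries labelled double knockout at 6 months were compared with edgeR 4.0.16 in R 4.3.3 (filterByExpr, TMM, glmQLFit with robust estimation, glmQLFTest, prior count 2, Benjamini-Hochberg over 17755 genes, threshold 0.05), tested on simulated data. CPM values use total counts. Alternatives were other scalings, filters and tests (DESeq2 1.42.0, limma-voom 3.58.1), a replicate block, all libraries in 1 fit, background subtraction and leaving out each library. The 3-week files at 0 were left out. All 10 members were named, and of each list up to 4 genes past the threshold per direction by size and up to 2 others by level. The members and lists were chosen with earlier results of these data known.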

Additional observations from a re-analysis of the deposited data

Results flagged for a closer look

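In the libraries labelled Tfap2b knockout at 3 weeks, which entered no comparison, Cd34 in replicate 1 reached 32.6 CPM and Tcf7l1 reached 15.0 CPM, each above the highest control at 6 months (24.4 and 9.90 CPM). Replicate 2 had 0.639 and 2.96 CPM. The other 8 genes were at or below the highest control in both libraries. Fibroblast, endothelial and adipocyte markers were far higher in replicate 1 than in replicate 2, and their part in these values was not tested.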

How the results depend on the processing

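Lgr5 and Fgf18 kept their direction and call in all 15 alternatives, and Lhx2, Sox9, Tbx1, Foxc1 and Cd34 kept their negative sign in each that gave a value. Nfatc1 turned to 0.03 without replicate 2 labelled double knockout and ran from -0.54 to 0.03 when 1 library was left out. The count of members called lower (3) was 7 without replicate 3 labelled double knockout and ran from 2 to 7 when 1 library was left out. The count called higher (1) was 0 with no filter on low counts (Postn 2.12, edgeR adjusted p = 0.162), 0 with all libraries in 1 fit (2.07, edgeR adjusted p = 0.0762) and 0 to 1 when 1 library was left out. Over all genes, 1111 were called higher and 1526 lower; no filter gave 1941 and 2868, all libraries in 1 fit 658 and 890, and leaving out 1 library 313 to 2733 and 355 to 4811. The lowest counts came without replicate 1 labelled double knockout and the highest without control replicate 3. With no filter 42554 genes were tested in place of 17755, and the median log2 fold change over them was -0.56 in place of -0.035. These medians are over different sets of genes, so they do not show how far a given gene moved. Among the members, Lgr5 had -3.50 with no filter against -3.63, Nfatc1 -0.08 against -0.20 and Postn 2.12 against 2.04. The cause of these differences was not tested.

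Same-numbered libraries did not deviate together from their group means (correlations 0.027, -0.161 and -0.0588). With so few libraries these values cannot decide whether the numbers pair the samples, and the titles name no shared litter or batch. A replicate block gave 720 higher and 1009 lower genes, with 1 member higher and 2 lower, since Tcf7l1 (-1.74, edgeR adjusted p = 0.0538) lost its call. Tcf7l1 also missed it with limma-voom (adjusted p = 0.0556) and with all libraries in 1 fit (edgeR adjusted p = 0.0911). At 9 to 28 counts in a library, as for Lgr5, Cd34, Fgf18 and Tcf7l1, levels rest on few reads, and PCR reads without molecular identifiers are not independent molecules.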
